A study of Zea mays with 11 samples.

Results

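DNA methylation at 5 maize genes of embryo and aleurone is described here across a time course of kernel development. The genes are vp1 (GRMZM2G133398), nkd1 (GRMZM2G129261), nkd2 (GRMZM5G884137), glb1 (GRMZM2G067919) and glb2 (GRMZM2G026703). They were chosen by gene model identifier and not by a rule on measured values, though with earlier results of these data known. They are 5 of the 39656 gene models listed in each library's table. All plants were the inbred line Mo17, field-grown and self-pollinated, with no mutant allele and no treatment named in the labels. Genomic DNA came from whole seed at 3 and 5 days after pollination, from endosperm separated by hand at 7, 9, 10 and 11 days and again at 13, 15, 20 and 25 days, and from the ear leaf at 13 days, which served as the study's control tissue. Whole seed at these ages holds maternal tissue beside the young endosperm and embryo, and dissected endosperm includes its aleurone, so no library is a pure sample of the cells in which these genes are best known to act. Each stage has 1 library, made by bisulfite conversion and paired-end sequencing.

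In a cereal kernel, the aleurone is the outermost cell layer of the endosperm, and late in development embryo and aleurone enter a maturation program under the hormone abscisic acid. The product of vp1 is a B3-domain transcription factor, the maize counterpart of Arabidopsis ABI3, needed for maturation, for dormancy and for anthocyanin synthesis in the aleurone. The products of nkd1 and nkd2 are related zinc-finger transcription factors of the INDETERMINATE domain family, which together restrict the aleurone to its normal number of cell layers and act on maturation genes. The globulins made from glb1 and glb2 are storage proteins of the mature embryo. Plant DNA is methylated at CG, CHG and CHH cytosines, where H is A, C or T. In maize, CG and CHG methylation is dense over transposons, while CHH methylation is mostly low and is known for narrow islands at the edges of genes. In endosperm, part of the maternal genome is known to lose methylation around fertilization.

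Levels are given as the percentage of calls, meaning sequenced cytosines, that were methylated. They were measured over each gene body and over an upstream region of a width that the sources used here do not state. That makes 30 measures, 5 genes by 2 regions by 3 contexts, and all 30 had at least 10 calls in every library. Calls per library were summed over all gene bodies and upstream regions with a methylated count above 0. These sums ran from 143230165 calls in the leaf to 223198933 calls in 11-day endosperm. The 5 genes had 4878 to 10105 upstream calls and 16266 to 28709 body calls per library. Upstream regions took 18.5% and 20.7% of the 5 genes' calls in whole seed, 18.1% to 32.2% in endosperm with the highest share at 10 days, and 27.7% in leaf. Over all gene models that share was 43.7% and 44.8% in whole seed, 41.7% to 45.2% in endosperm and 44.6% in leaf. The part of this coverage in the levels below was not tested. Levels in chloroplast gene models are given for reference, since chloroplast DNA is held to be unmethylated. Their CG level was 7.48% and 6.14% in whole seed at 3 and 5 days, 1.87% to 2.77% in endosperm and 2.13% in leaf. The CHG level there was 8.07% and 6.65% in whole seed, 2.13% to 2.66% in endosperm and 2.37% in leaf, and the CHH level was 1.06% and 0.853% in whole seed, 0.689% to 0.977% in endosperm and 0.641% in leaf. The chloroplast CHH level was thus below the CG and CHG levels, and the source of these levels was not tested. They are not a floor for the nuclear levels: in 3-day seed, body CG was 1.05% for nkd2 and 0.48% for glb2.

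**Figure D1:**
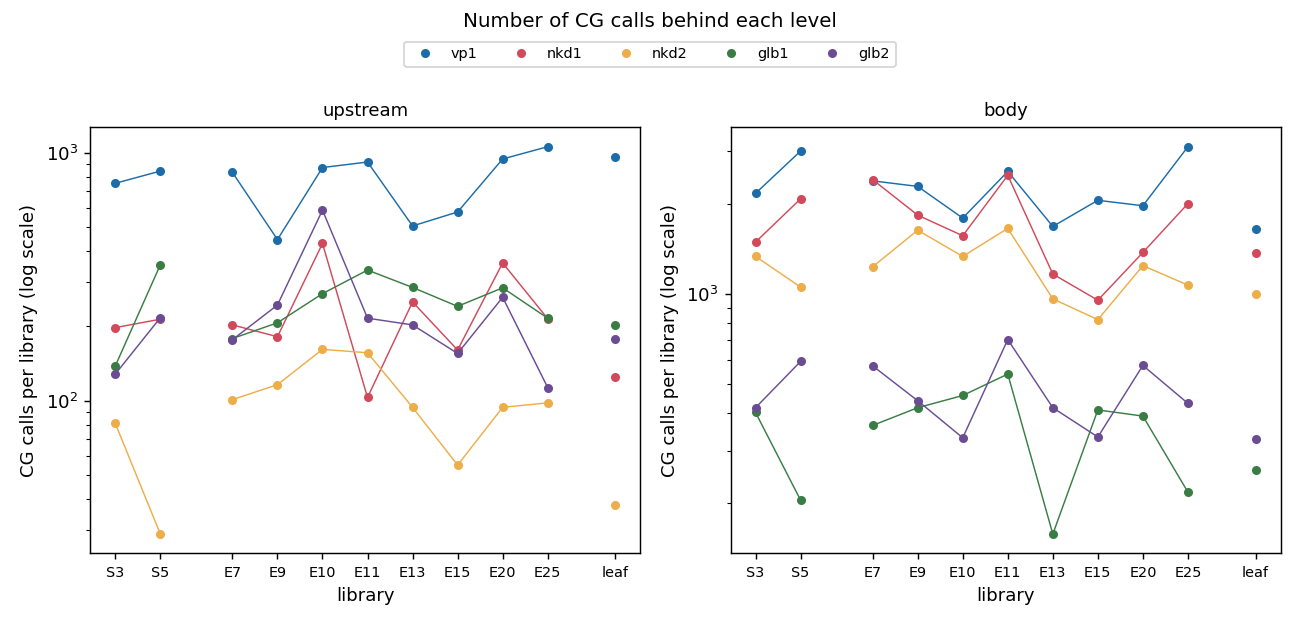
Number of CG calls behind each level, for the upstream region (left) and the gene body (right) of the 5 genes. The vertical axis is logarithmic, the horizontal axis gives whole seed at 3 and 5 days (S), endosperm at 7 to 25 days (E) and ear leaf, and each point is 1 library. Upstream of nkd2 the number ran from 29 to 161, the thinnest coverage of the 5, and upstream of vp1 from 446 to 1056.

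The regulator vp1 lies on chromosome 3, forward strand, at 162799871 to 162804955, in the coordinates of the deposited tables, whose genome build the sources used here do not state. Its upstream region was about evenly split between methylated and unmethylated CG and CHG calls. The upstream CG level was 41.0% and 55.6% in whole seed at 3 and 5 days. In endosperm it ran from 38.9% at 11 days to 55.6% at 10 days with a median of 51.7%, and in leaf it was 56.2%. The CG levels at 3 days and at 11 days thus stood below those of the other 9 libraries, which lay between 48.6% and 56.2%. The upstream CHG level was 47.2% and 51.7% in whole seed, 33.6% to 49.0% with a median of 42.7% in endosperm, and 57.0% in leaf. The leaf value was above all 8 endosperm values, and the 5-day seed value was too. The upstream CHH level was 3.17% and 4.85% in whole seed, 3.24% to 8.24% with a median of 7.21% in endosperm, and 5.43% in leaf. The 3-day seed was below all 8 endosperm values, and the 5-day seed below all but that of 13 days.

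The body of vp1 carried more CHH than CG or CHG methylation. Its body CHH level was 12.3% and 6.92% in whole seed at 3 and 5 days, 5.34% to 11.2% with a median of 7.88% in endosperm, and 8.43% in leaf. Its body CG level was 7.12% and 3.34% in whole seed, 1.49% to 3.78% with a median of 2.80% in endosperm, and 5.83% in leaf. Its body CHG level was 5.88% and 4.17% in whole seed, 1.64% to 4.42% with a median of 3.34% in endosperm, and 4.04% in leaf. CHH exceeded both other contexts in 11 of 11 libraries. The same order held in all libraries for 41 of 31388 gene bodies, or 0.131%, and for 35 of the 1249 bodies whose mean CHH level was at least 5%, or 2.8%. This order was singled out after the values were seen and has no test. The mean of 8.09% over the 11 libraries was higher than the body CHH mean of 98.4% of gene models, whose median was 1.19%. All 33 methylated counts of the vp1 body, 11 libraries in 3 contexts, were even numbers, as were 26 of the 33 of its upstream region, 31 of 33 for the nkd1 body and 27 of 33 for the nkd2 body. For these 4 regions, confidence intervals were computed on the calls divided by 2, since the calls may not all be separate observations. On that footing, the 95% Wilson interval of upstream CG was 36.1% to 46.0% for vp1 in seed at 3 days and 50.8% to 60.3% at 5 days. It was 34.5% to 43.4% in 11-day endosperm and 50.9% to 60.2% in 10-day endosperm. Wilson intervals here cover counting error only, because each rests on the calls of 1 library, and they say nothing of the spread between kernels. Amplified reads carry no molecular identifiers, so separate molecules cannot be told from copies. The intervals also take calls as separate observations. Several calls can come from 1 read, so the intervals may be too narrow.

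The 2 nkd genes had mostly unmethylated bodies and upstream levels that differed widely between libraries. The gene nkd1 lies on chromosome 2, reverse strand, at 17094412 to 17101992. Its upstream CG level was 22.3% and 22.1% in whole seed at 3 and 5 days, 6.08% to 46.3% with a median of 14.9% in endosperm, and 16.0% in leaf. The highest endosperm levels were 46.3% at 10 days and 35.1% at 25 days, and the other 6 lay between 6.08% and 19.4%. CHG upstream of nkd1 followed a like order of libraries, with 27.7% and 23.9% in whole seed, a range of 6.94% to 35.8% and a median of 12.4% in endosperm, and 16.7% in leaf. Again the 10-day and 25-day endosperm, at 35.8% and 30.8%, held the highest levels of the 11 libraries. CHH upstream of nkd1 was 15.0% and 2.37% in whole seed, 0.41% to 17.3% with a median of 2.99% in endosperm, and 3.75% in leaf. The 3 libraries above 5% were 3-day seed at 15.0%, 10-day endosperm at 17.3% and 25-day endosperm at 8.78%. The 10-day library also had the most calls there, 430 in CG against a median of 202 over the 11 libraries, and the part of coverage in its levels was not tested. With each call taken as separate, the 95% Wilson interval of nkd1 upstream CG was 3.43% to 10.6% at 9 days. It was 41.6% to 51.0% at 10 days and 12.1% to 27.0% at 11 days.

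The gene nkd2 lies on chromosome 10, reverse strand, at 137499658 to 137505155. Its upstream CG level was 7.41% and 65.5% in whole seed at 3 and 5 days, 0.00% to 52.1% with a median of 24.9% in endosperm, and 21.1% in leaf. The range of 65.5 percentage points over the 11 libraries was larger than that of 98.3% of gene models, whose median range was 20.4 points. These levels rested on 29 to 161 calls, with a median of 94. In seed, 19 of 29 calls were methylated at 5 days (95% Wilson interval 47.4% to 80.1%) and 6 of 81 at 3 days (3.44% to 15.2%). The 2 intervals did not overlap, but they take each call as separate. At 5 days the region held 29 CG, 19 CHG and 63 CHH calls, which may come from few reads. In endosperm the highest level was 52.1% at 13 days (42.2% to 61.9%), and at 15 days 2 of 55 calls were methylated (1.0% to 12.3%). At 25 days the count was 0 of an estimated 98 calls, which allows a level of up to 3.06%. CHG upstream of nkd2 was 5.36% and 42.1% in whole seed, 2.63% to 20.4% with a median of 8.75% in endosperm, and 10.4% in leaf, on 19 to 149 calls. CHH there was low in every library, at 0.53% and 1.59% in whole seed, 0.00% to 2.78% in endosperm and 0.70% in leaf. The upstream regions of the 2 nkd genes thus had their high and low levels in different libraries, with 10 days highest for nkd1 CG and 5-day seed highest for nkd2 CG.

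The bodies of both nkd genes held at most 3.21% in any library and context. The nkd1 body had 0.63% to 2.15% CG, 0.31% to 3.21% CHG and 0.32% to 2.26% CHH over the 11 libraries. The nkd2 body had 0.20% to 2.42% CG, 0.42% to 2.02% CHG and 0.38% to 1.70% CHH. The highest CG, CHG and CHH values of nkd1 came from the whole-seed libraries, 2.15% and 3.21% at 3 days and 2.26% at 5 days. Chloroplast CG and CHG levels were highest in those 2 libraries too, where they stood above the CG and CHG levels of both nkd bodies, and their part in the nkd1 values was not tested.

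**Figure D2:**
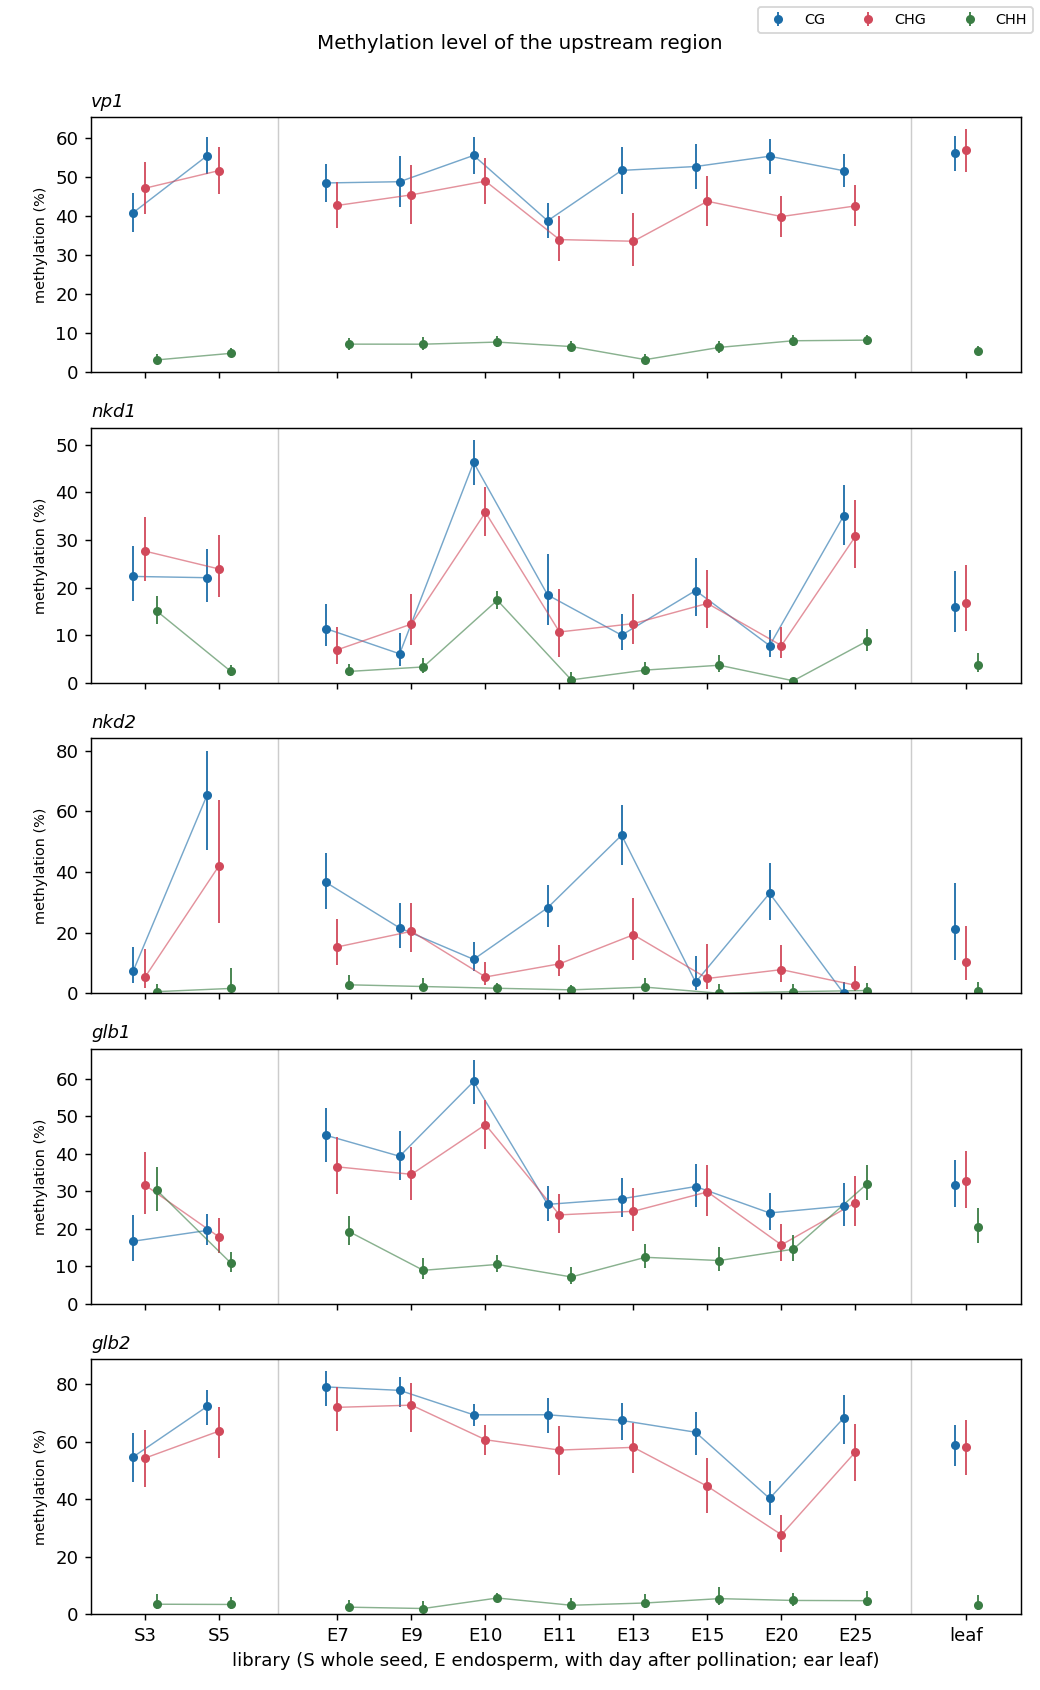
Methylation level in percent upstream of the 5 genes (1 panel each), with CG, CHG and CHH in different colours, by library: whole seed at 3 and 5 days, endosperm at 7 to 25 days, ear leaf at 13 days. Points are single libraries and bars are 95% Wilson intervals, on calls divided by 2 for vp1. The 10-day endosperm library stands highest for CG and CHG at nkd1 and glb1, nkd2 CG spans 0.00% to 65.5%, and glb2 CG and CHG are lowest at 20 days.

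The globulin gene glb1 lies on chromosome 1, forward strand, at 258363413 to 258366718. Its upstream region had partial methylation in all 3 contexts. Upstream CG was 16.7% and 19.6% in whole seed at 3 and 5 days, 24.2% to 59.3% with a median of 29.6% in endosperm, and 31.7% in leaf. Both seed values lay below all 8 endosperm values, although the 95% Wilson interval of the 5-day seed, 15.8% to 24.0%, overlapped that of the lowest endosperm library, 19.6% to 29.5% at 20 days. The 7-, 9- and 10-day endosperm had 44.9%, 39.3% and 59.3%, and the 5 later libraries lay between 24.2% and 31.3%. Upstream CHG was 31.6% and 17.8% in whole seed, 15.7% to 47.8% with a median of 28.4% in endosperm, and 32.6% in leaf. The order of endosperm stages resembled that of CG, with the highest level at 10 days and the lowest at 20 days. Upstream CHH was 30.3% and 10.8% in whole seed, 7.14% to 32.0% with a median of 12.0% in endosperm, and 20.5% in leaf. The highest values, 30.3% in 3-day seed and 32.0% in 25-day endosperm, came from opposite ends of the seed series. In these 2 libraries CHH exceeded CG. The mean CHH level of 16.2% over the 11 libraries was above that of 98.1% of gene models, whose median was 3.43%, and its range of 24.9 points was also larger than that of 98.1%.

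The body of glb1 was more methylated in CG and CHG than the bodies of the other 4 genes by its mean over the 11 libraries, 8.33% for CG and 6.92% for CHG. Its body CG level was 4.23% and 15.6% in whole seed at 3 and 5 days, 5.22% to 14.6% with a median of 7.26% in endosperm, and 5.81% in leaf. Its body CHG level was 2.37% and 15.4% in whole seed, 0.47% to 11.4% with a median of 7.17% in endosperm, and 4.22% in leaf. The 5-day seed and the 13-day endosperm were the highest in CG, and the 5-day seed, 10-day and 13-day endosperm in CHG. Body CHH of glb1 stayed between 0.22% and 4.17%, with the highest value at 13 days.

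The other globulin gene, glb2, lies on chromosome 1, reverse strand, at 287062939 to 287065014. It combined the highest upstream CG and CHG means of the 5 genes, 65.4% and 56.8% over the 11 libraries, with an almost unmethylated body. Upstream CG was 54.7% and 72.2% in whole seed, 40.2% to 79.0% with a median of 68.7% in endosperm, and 58.8% in leaf. The 20-day endosperm, at 40.2%, was the lowest library, and the other 7 endosperm values lay between 63.2% and 79.0%. Upstream CHG was 54.3% and 63.6% in whole seed, 27.6% to 72.6% with a median of 57.5% in endosperm, and 58.2% in leaf. Its lowest library was again 20-day endosperm, and its highest values, 71.9% and 72.6%, were those of 7 and 9 days. Upstream CHH was 3.48% and 3.40% in whole seed, 1.99% to 5.64% in endosperm and 3.24% in leaf. The body had 0.30% to 2.42% CG, 0.00% to 3.55% CHG and 0.23% to 2.70% CHH over the 11 libraries. In bulk tissue, a level between 0% and 100% may stem from partial methylation in every cell or from full methylation in some cells or alleles, and these cannot be told apart.

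**Figure D3:**
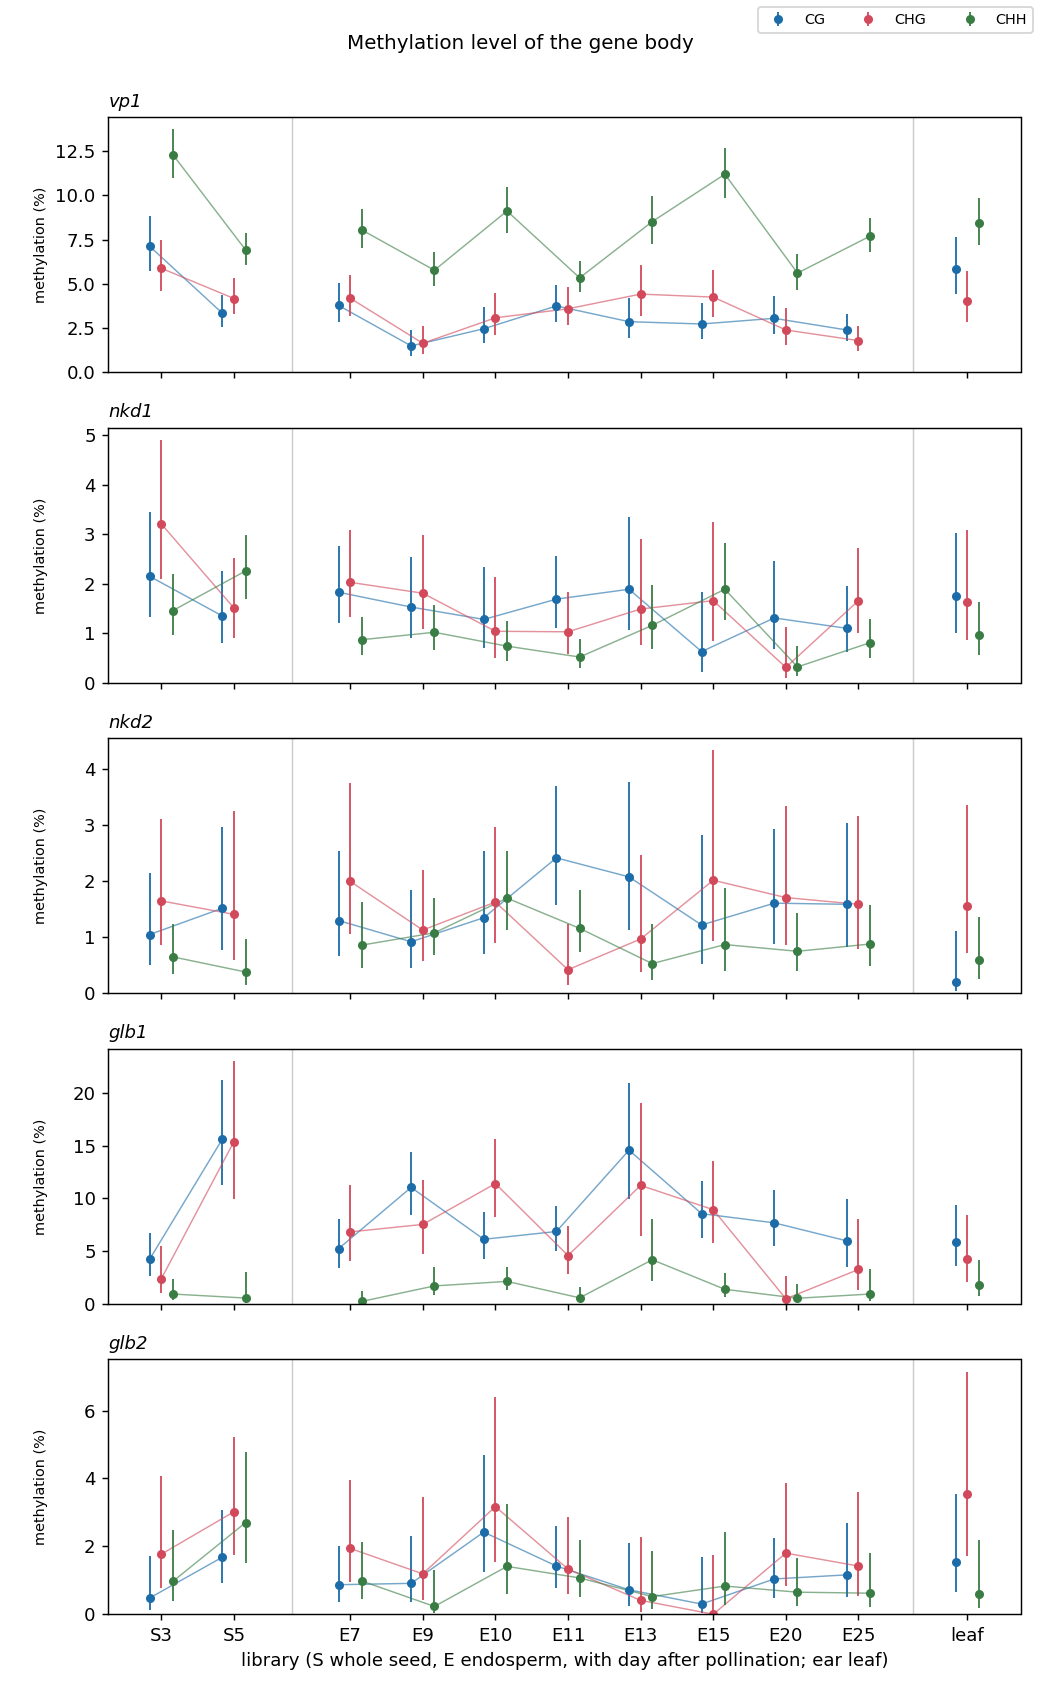
Methylation level in percent in the bodies of the 5 genes (1 panel each), with CG, CHG and CHH in different colours, by library, with 95% Wilson intervals, on calls divided by 2 for vp1, nkd1 and nkd2. The vp1 body has more CHH than CG or CHG methylation in 11 of 11 libraries, glb1 has the highest mean CG, and nkd1, nkd2 and glb2 lie at 3.55% or below in every library and context.

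Whole seed was set against endosperm to ask whether the younger, undissected kernels differ from the dissected tissue. All whole seed was younger than all endosperm, so tissue and age cannot be told apart, even with day as a covariate. By limma with Benjamini-Hochberg adjustment over all gene models, 0 of 30 measures were past an adjusted p of 0.05, and 4 of 30 had an unadjusted p under 0.05, beside 20.0% of the values of all gene models over the 6 classes. Of all gene models, limma called 1.24% for body CG, 4.2% for body CHG and 5.42% for body CHH, and upstream it called 0.518% for CG, 14.7% for CHG and 7.53% for CHH. With 5 genes per class, a count of 0 lies near those shares. The share for upstream CHG depended on the fit, with 5291 gene models called here, 76 with library medians subtracted, 33 without the 5-day seed, and 0 without the 3-day seed, with day as a covariate or against 7- and 9-day endosperm alone. A quasi-binomial model on the calls gave 0 and 4. Estimates, in percentage points, are given for the measures with an unadjusted p under 0.1. Upstream of vp1, CHH averaged 4.01% ± 1.19 in whole seed and 6.83% ± 1.60 in endosperm (SD, n = 2 and 8), an estimate of -2.82 with a standard error of 1.17 (limma adjusted p = 0.202). Upstream CHG of vp1 averaged 49.5% ± 3.20 in whole seed and 41.4% ± 5.37 in endosperm, an estimate of +8.05 with a standard error of 4.04 (limma adjusted p = 0.170). In the vp1 body, CG averaged 5.23% ± 2.67 in whole seed and 2.81% ± 0.75 in endosperm, an estimate of +2.42 with a standard error of 1.02 (limma adjusted p = 0.411), and the CHG estimate was +1.86 with a standard error of 0.93 (limma adjusted p = 0.315). The vp1 body CG estimate was +0.53 without the 3-day seed, +4.31 without the 5-day seed and +0.02 with library medians subtracted. The vp1 body CHG estimate was +1.0 without the 3-day seed and +1.03 with day as a covariate. Chloroplast CG and CHG levels were also higher in whole seed, and their part in those body estimates was not tested. The nkd1 body CHH estimate was +0.94 with a standard error of 0.39 (limma adjusted p = 0.225), and it was +0.54 without the 5-day seed and +0.60 with library medians subtracted.

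Among the globulins, upstream CG of glb1 averaged 18.1% ± 2.04 in whole seed and 34.9% ± 12.2 in endosperm (SD, n = 2 and 8), an estimate of -16.8 with a standard error of 8.16 (limma adjusted p = 0.571), or -28.8 with day as a covariate. Both seeds lay below all 8 endosperm libraries in this 1 measure of the 30, a pattern held by 1.34% of all gene models for upstream CG and by 1.09% of values over all regions and contexts. Both seeds lay above all 8 in 0 of 30 measures, against 15.1% of values over all gene models, regions and contexts. The glb2 body CHH estimate was +1.05 with a standard error of 0.43 (limma adjusted p = 0.224). The seeds themselves were far apart for nkd2, whose upstream CG averaged 36.5% ± 41.1 in whole seed and 23.3% ± 17.8 in endosperm, an estimate of +13.2 with a standard error of 15.5 (limma adjusted p = 0.907).

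The direction of the estimates can be set beside that of all gene models. Upstream CHG estimates were above 0 for 4 of the 5 genes with a median of +8.05 points, beside 86.4% of all gene models and a median of +8.67. Upstream CG estimates were above 0 for 2 of 5 with a median of -2.18, beside 62.0% and +1.38. Upstream CHH estimates were above 0 for 2 of 5 with a median of -0.34, beside 71.7% and +0.74. The p-values measure the spread between libraries of a tissue, which are of different ages, and a p that misses the threshold does not show that levels did not differ. Without the 13-day endosperm library, vp1 upstream CHH passed, at -3.34 points (limma adjusted p = 0.030), against adjusted p-values of 0.105 to 0.820 under the other alternatives. Without the 3-day seed, glb2 body CHH passed, at +1.91 points (limma adjusted p = 0.0457), and without the 5-day seed it was +0.18 (limma adjusted p = 0.909), so the 5-day seed decides that estimate.

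**Figure D4:**
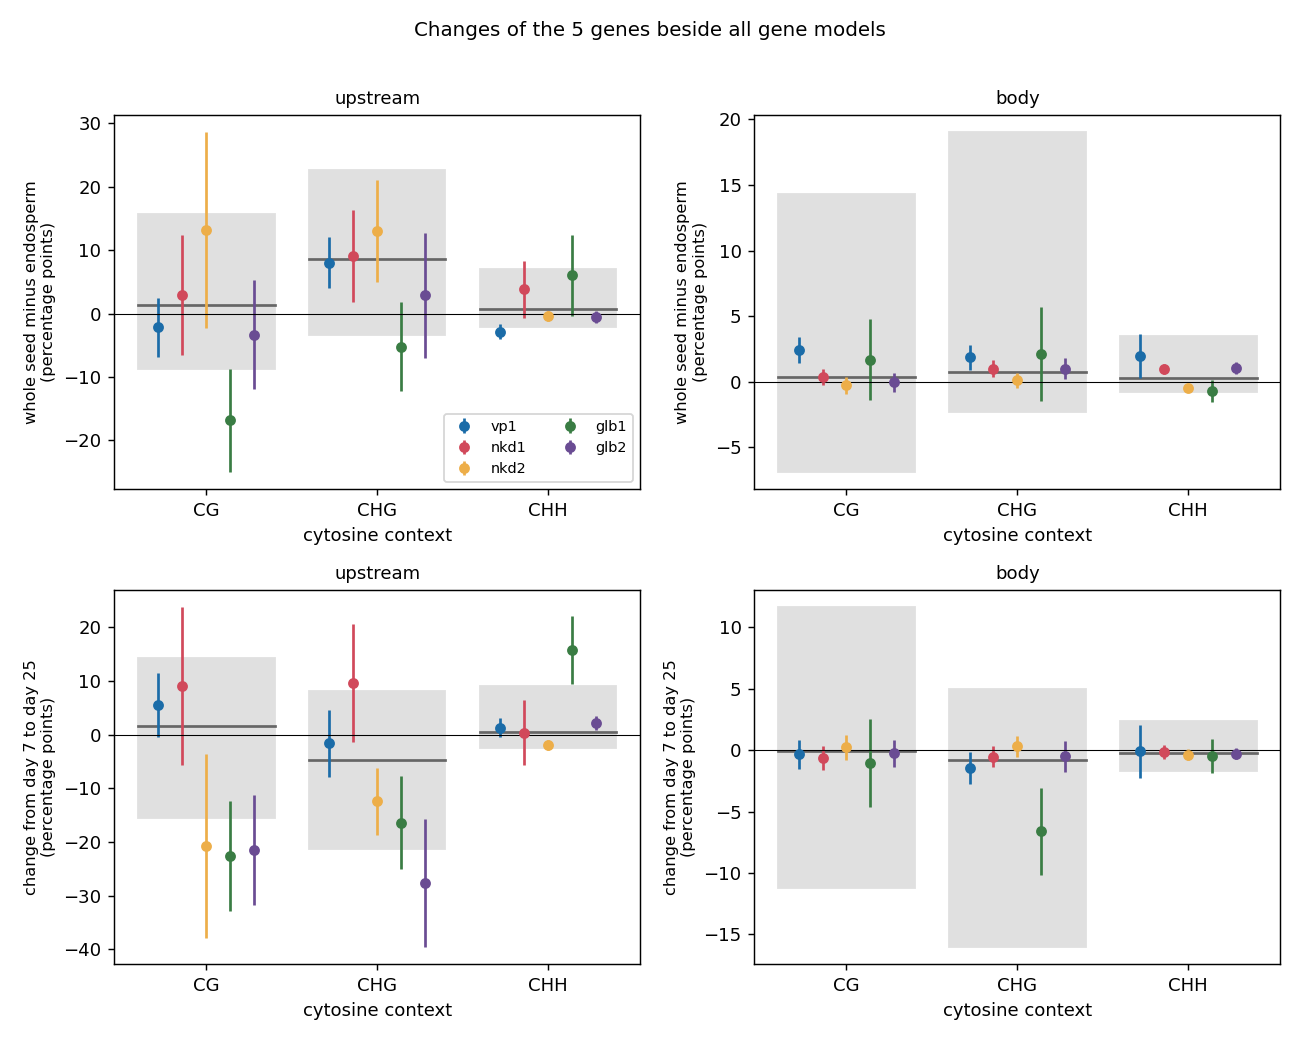
Estimated changes in percentage points for the 5 genes, by region and context, for whole seed minus endosperm and for the endosperm trend over the 18 days from 7 to 25 days. Points are limma estimates with their standard errors, the grey box spans the 5th to the 95th percentile of all gene models and the grey line is their median. None of the plotted estimates was past an adjusted p of 0.05, and the estimates farthest below 0 in the trend are upstream CG and CHG of glb1 and glb2 and upstream CG of nkd2.

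The endosperm time course was fitted with a straight line in day, with changes given over the 18 days from 7 to 25 days. Limma slopes from fewer libraries were scaled to the same 18 days, so fits that end before 25 days reach past their data. By limma, 0 of 30 measures passed and 2 of 30 had an unadjusted p under 0.05, beside 9.15% of the values of all gene models over the 6 classes. The quasi-binomial model gave 0 and 3. Of all gene models, limma called 0.0% in CG and CHG of either region, 0.0277% in CHH of the body and 1.85% in CHH of the upstream region. For the globulins, the upstream CG and CHG estimates were below 0 and the upstream CHH estimates above 0, none past the threshold. Upstream of glb2, the CHG estimate was -27.6 points with a standard error of 12.0 (limma adjusted p = 0.440), and the CG estimate was -21.4 with a standard error of 10.3 (limma adjusted p = 0.858). The glb2 CHG estimate was -16.3 without the 20-day library and -63.7 without the 25-day library, and the CG estimate was -9.87 and -51.6, so their sizes rest on those 2 libraries. Fitted to 7 to 15 days alone and scaled to 18 days, they were -61.2 for CHG and -36.2 for CG. The glb2 levels themselves were 71.9% at 7 days and 44.4% at 15 days for CHG, and 79.0% and 63.2% for CG. Upstream of glb1, the CG estimate was -22.6 with a standard error of 10.2 (limma adjusted p = 0.858), and the CHG estimate was -16.4 with a standard error of 8.72 (limma adjusted p = 0.514). The glb1 CHG estimate was -31.2 without the 25-day library and -9.04 with library medians subtracted. Fitted to 7 to 15 days and scaled to 18 days, the glb1 estimates were -27.0 for CHG and -43.4 for CG. The glb1 upstream CHH estimate was +15.8 with a standard error of 6.37 (limma adjusted p = 0.275). It rested on the 25-day library: it was +0.07 without it (limma adjusted p = 0.998). Fitted to 7 to 15 days and scaled to 18 days, the estimate was -9.97 (limma adjusted p = 0.865).

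For the regulators, upstream trend estimates had both signs. The nkd2 upstream CG estimate was -20.8 points with a standard error of 17.1 (limma adjusted p = 0.870), the CHG estimate was -12.4 with a standard error of 6.27 (limma adjusted p = 0.495), and the CHH estimate was -1.86 with a standard error of 0.91 (limma adjusted p = 0.378). The nkd2 CHH estimate was -3.23 without the 25-day library and -5.09 when fitted to 7 to 15 days, both scaled to 18 days. Both exceed in size the highest endosperm level, 2.78%, so they are scaled slopes and not changes that took place. The nkd2 CHG estimate was -5.04 with library medians subtracted. The vp1 upstream estimates were +5.57 for CG, -1.62 for CHG and +1.31 for CHH, with standard errors of 5.89, 6.21 and 1.73. The nkd1 upstream estimates were +9.07 for CG, +9.61 for CHG and +0.38 for CHH, with standard errors of 14.7, 11.0 and 6.07. Upstream CHG estimates were above 0 for 1 of the 5 genes with a median of -12.4, beside 24.7% and a median of -4.71 for all gene models. Upstream CG estimates were above 0 for 2 of 5 with a median of -20.8, beside 58.8% and +1.59.

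Endosperm was set beside the ear leaf, the control tissue, without a test since the leaf has 1 library. The leaf lay outside the range of the 8 endosperm libraries for 5 of the 30 measures, above it in 4 and below it in 1, and 3 of the 5 belonged to vp1. Over all gene models, regions and contexts, the leaf was above all 8 endosperm libraries for 28.7% of values and below them for 6.96%. Endosperm reached at most 49.0% in vp1 upstream CHG, against 57.0% in leaf (95% Wilson interval 51.5% to 62.4%), and 33.6% at the matching age of 13 days (27.1% to 40.8%). The leaf was above all 8 endosperm libraries for 50.7% of gene models in upstream CHG. Endosperm reached at most 55.6% in vp1 upstream CG against 56.2% in leaf, a place shared by 28.1% of gene models, and 3.78% in vp1 body CG against 5.83% in leaf, shared by 24.8%. Endosperm reached at most 3.17% in glb2 body CHG against 3.55% in leaf, shared by 26.7%. In nkd2 body CG the lowest endosperm level was 0.92% against 0.20% in leaf, a place below all endosperm libraries shared by 8.58% of gene models. For the upstream regions of nkd1, nkd2, glb1 and glb2, the leaf lay within the endosperm range in all 3 contexts.

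Other genes of the same biology were taken from a list of seed maturation, embryo and aleurone genes, of which 23 gene models could be matched by symbol. Of their 130 measures, 7 passed the threshold, all 7 with the higher level in whole seed (limma, adjusted over all gene models). Estimates of either sign were found among the rest. An unadjusted p under 0.05 was found for 24 of the 130, beside 20.0% of the values of all gene models. These calls rest on the whole-seed pair: of the 7, 0 held without the 3-day seed, with day as a covariate or against 7- and 9-day endosperm alone, and 1, vp8, without the 5-day seed. Against 7- and 9-day endosperm alone, 0 gene models were called in any class, and with day as a covariate 0 in upstream CHG. No list call could hold in these cases, so those losses are not particular to the list. With day as a covariate, limma did call 772 gene models in body CHH and 2711 in upstream CHH. The CHH calls of the list could have held in that fit and did not. With library medians subtracted, vp8 was again the 1 call that held, and the 3 upstream CHG calls were lost. In upstream CHG, 3 of 23 passed, beside 14.7% of all gene models. They were rab17, a dehydrin induced by abscisic acid, at 78.4% in whole seed and 58.9% in endosperm (limma adjusted p = 0.0160), ole17, an oil-body protein, at 63.4% in whole seed and 25.9% in endosperm (adjusted p = 0.0291), and sal1, a vacuolar sorting protein that restricts aleurone layer number, at 77.0% in whole seed and 59.2% in endosperm (adjusted p = 0.0125). In upstream CHH, 2 of 23 passed, beside 7.53% of all gene models. They were lec1, a regulator of embryo development, at 7.87% in whole seed and 2.74% in endosperm (limma adjusted p = 0.0190), and ocl5, a homeodomain factor of outer cell layers, at 3.47% in whole seed and 1.61% in endosperm (adjusted p = 0.0346). In body CHH, 2 of 22 passed, beside 5.42% of all gene models. They were vp8, a peptidase gene named for viviparous kernels, at 10.7% in whole seed and 2.70% in endosperm (limma adjusted p = 0.0127), and rab17 at 2.84% in whole seed and 1.05% in endosperm (adjusted p = 0.0172). In the endosperm trend, 0 of the 130 passed, and 1 passed without the 15-day library. An unadjusted p under 0.05 was found for 11 of the 130, beside 9.15% of the values of all gene models. The list counts lie near the shares of all gene models, so they do not set the list apart.

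Gene models with a symbol whose upstream levels most resembled each of the 5 genes were ranked by the root mean square difference over 33 values, 11 libraries in 3 contexts. Nearest to vp1 among 1310 candidates were hon110 and abph1, at 5.53 and 5.54 percentage points. Nearest to nkd1 among 1311 were CPPS2 at 7.91 and sbp6 at 8.42, and nearest to nkd2 were pds1 at 11.9 and fps1 at 12.1. Nearest to glb1 among 1310 were gpm464 at 10.7 and bf1 at 10.8, and nearest to glb2 were cyp12 at 7.85 and gst13 at 8.78. The nearest models to nkd2 and glb1 were thus farther from them than those of the other 3 genes. These differences include counting error. Upstream CG calls were 29 to 161 for nkd2, 138 to 353 for glb1, 103 to 430 for nkd1, 113 to 586 for glb2 and 446 to 1056 for vp1. The part of coverage in the ranking was not tested.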

How the data were processed

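The submitters' processing notes name cutadapt, Bismark and Bowtie2 for the bisulfite reads of the 11 libraries, without versions. Per the file headers, the authors deposited for each gene model, region and context a count of methylated calls and a level in percent. Dividing the count by the level and rounding gave the total of calls. Levels have 2 decimals, so 163 of the 327 values of the 5 genes with a count above 0 allowed exactly 1 total, and the widest range was 97 calls. For the 3 values with a count of 0, an estimate from the remaining contexts of that region was used. Confidence intervals are Wilson intervals at 95%, and a count of 0 is given the limit of 3 calls.

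The tests used limma 3.58.1 (R 4.3.3) on levels, fitted separately by region and context across nuclear gene models that had at least 10 calls in all 11 libraries. In CG and CHG, models with a mean level under 1% were dropped. P-values were Benjamini-Hochberg adjusted over all gene models of a fit, with a threshold of 0.05. The seed comparison used all 11 libraries with tissue as a factor, and the trend was a regression on day over the 8 endosperm libraries. The labels name no batch. Alternatives were other call minimums, no level filter, an arcsine scale, a quasi-binomial model, other moderation and subtracted library medians. Further ones were other stages, day as a covariate, and leaving out each whole-seed and each endosperm library in turn.

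The 5 genes and the gene list were chosen with earlier results of these data known. Genes named beside the 5 were list genes past the threshold, at most 3 per comparison, region and context by size of change. For each of the 5 genes with a CHG range of at least 20 points, the 2 models with a symbol and the smallest root mean square difference were also named. Symbols came from a RefSeq table of another assembly, used for names only, and no sequence was analysed here.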

Additional observations from a re-analysis of the deposited data

Results flagged for a closer look

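In each of the 30 measures, the 8 endosperm libraries were checked for a lowest or highest library whose gap to the nearest other library, divided by the whole range, was above Dixon's 95% critical value for 8 samples. Chance alone flags about 1 in 20 groups, and 3 of 30 were flagged. All 3 were low values in an upstream region.

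Upstream CG of vp1 was 38.9% in 11-day endosperm on 916 calls, where the next lowest library had 48.6%, a gap of 0.578 of the range. Upstream CHH of vp1 was 3.24% in 13-day endosperm on 1605 calls, where the next lowest had 6.37%, a gap of 0.626 of the range. Upstream CG of glb2 was 40.2% in 20-day endosperm on 261 calls, where the next lowest had 63.2%, a gap of 0.594 of the range. The 3 values came from 3 different libraries. Over all nuclear gene models, the mean upstream CG level was also lowest in 11-day endosperm, at 55.4%, where the highest of the 11 libraries had 62.6%. The 13-day library had a mean upstream CHH level of 3.99% and the 20-day library a mean upstream CG level of 59.9%, neither of them the lowest. The part of these library-wide levels in the flagged values was not tested.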

How the results depend on the processing

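No paired analysis was possible because the labels give no replicate numbers shared between tissues. The count of measures past the threshold stayed at 0 of 30 in both comparisons under every alternative run other than leaving out 1 library, and the trend count stayed at 0 in every alternative run. With 1 endosperm library left out at a time, the seed count ran from 0 to 1. The number of measures with the leaf outside the endosperm range then ran from 5 to 7. That number could not fall below 5, since leaving out a library can only narrow the range. For the 14 estimates with an unadjusted p under 0.1, 242 of 244 alternative values kept their direction. Other call minimums, no level filter and other moderation leave an estimate itself unchanged, so values from those settings could not turn. Of the 2 that turned, 1 was the seed comparison of vp1 upstream CHG with library medians subtracted, at -3.58 points (limma adjusted p = 0.614). The other was the glb1 upstream CHH trend fitted to 7 to 15 days and scaled to 18 days, at -9.97 points (limma adjusted p = 0.865). At a minimum of 20 calls, nkd2 upstream CHG could not be tested, which left 29 measures. Depth limits nkd2 upstream most, where levels rest on as few as 19 calls, and the lack of a replicate for any stage limits every single-stage value.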

Other observations

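Even methylated counts, seen in all 33 values of the vp1 body, were frequent among gene bodies. Of the 36596 gene bodies with at least 10 counts above 0, 8847 had even counts throughout, or 24.2%, and of the 38873 upstream regions 618 did, or 1.59%. For glb1 and glb2, odd and even counts were both common, with 17 to 20 odd counts of 33 in each region, and upstream of nkd1 and nkd2 17 and 16 of 33 were odd.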
